A study of Sus scrofa with 8 samples.

Results

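PIR, AKR1CL1 and 7 genes of the NRF2 antioxidant response (NQO1, HMOX1, GCLC, GCLM, TXNRD1, SRXN1 and NFE2L2) were examined in undifferentiated porcine synovial mesenchymal stem cells (SMSCs). These 9 genes, out of 13538 genes named on the Porcine Snowball Array, were followed through every probe set that the array's annotation gives to them, which makes 16 of 47722 probe sets. A further probe set, SNOWBALL_023591_st, is paired with PIR only by a supplementary table of the study and was kept apart from the 16. PIR was chosen by its measured difference between the tissues and AKR1CL1 by its differences between the tissues and between the breeds, so those values are a description and carry no test. The question was whether PIR and AKR1CL1 move together with the other genes of the pathway.

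The cells came from the stifle joints of male piglets that were 59 days old, 3 of the German Landrace breed (DL) and 3 of the Angeln Saddleback breed (AS), and were harvested at passage 3 without induction of differentiation. Each breed gave SMSCs from the adipose synovium that lines the infrapatellar fat pad (FP) and from the fibrous synovium of the joint capsule (FS). The 4 groups, with 2 arrays each, are written as breed and tissue (DL-FP, AS-FP, DL-FS, AS-FS). The methods describe pools of cells, and the labels do not tie an array to an animal or a culture, so p-values measure the spread between these arrays, which may be technical. With 2 arrays per group, all 4 groups shared 1 estimate of the spread.

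NRF2, the transcription factor encoded by NFE2L2, is held at a low level by the adaptor protein KEAP1, which delivers it for degradation. Oxidants and electrophiles modify KEAP1, NRF2 then accumulates in the nucleus and binds antioxidant response elements, and genes for glutathione synthesis, the thioredoxin system, quinone reduction and haem breakdown are transcribed. Pirin, the product of PIR, is an iron-binding nuclear protein that acts as a coregulator of NF-kB, and its gene is a target of NRF2 in human cells. AKR1CL1 belongs to the aldo-keto reductases, a family of enzymes that reduce carbonyl groups with NADPH and of which several human members are NRF2 targets.

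All values are RMA values on the log2 scale, so that a difference of 1 is a doubling. The 8 arrays had medians of 4.58 to 4.64, with background (the median of 69 probe sets made for it) at 2.66 to 2.81. On DL-FP 1 the 9 biotin spike probe sets had a mean of 9.37, against 10.26 to 10.58 on the other arrays. All 5 positive mesenchymal stem cell markers lay above background (NT5E at a mean of 3.01 only just). Of the negative markers, PTPRC, which encodes the leukocyte antigen CD45, lay at 2.08, below background. The other negative marker, CD34, lay above background at a mean of 5.97. Some markers of other cell types moved with tissue or breed. CD34 was lower in FP than in FS by limma (difference -1.56, adjusted p 0.0086), and the mean over 5 adipocyte markers was 5.28 to 5.60 on the FP arrays and 4.62 to 5.14 on the FS arrays, with LPL called higher in FP (1.59, adjusted p 0.0882). When the replicate number was added as a block, another adipocyte marker, FABP4, was called higher in FP too (1.14, adjusted p 0.0246). The other adipocyte markers, ADIPOQ (0.25), PLIN1 (0.09) and CIDEC (-0.15), were called between the tissues in neither fit. Between the breeds, limma called 1 of 5 fibroblast markers, LUM, lower in AS (-1.01, adjusted p 0.0119), while COL1A1, COL1A2 and PDGFRA stood at 0.07 to 0.15 and were not called. With the block, the endothelial marker PECAM1 (-0.53, adjusted p 0.02), the fibroblast marker DCN (-0.33, 0.0654) and the stem cell marker ENG (-0.27, 0.0745) were also called lower in AS, and the adipocyte marker ADIPOQ (0.58, 0.0445) and the stem cell marker CD44 (0.29, 0.0617) higher. The other endothelial markers, CDH5 (-0.07), VWF (0.12), KDR (0.05) and TEK (0.03), were called in neither fit. Neither were the other adipocyte markers, of which LPL (0.92) and PLIN1 (0.33) stood above 0 and FABP4 (-0.48) and CIDEC (-0.24) below. The mean over 5 macrophage markers was 4.74 to 4.75 in AS-FP, 4.49 to 4.55 in DL-FS, 4.61 to 4.65 in DL-FP and 4.63 to 4.71 in AS-FS. The part of these cell types in the differences given here was not tested.

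PIR was lower in the SMSCs from FP than in those from FS in both breeds. The probe set that the annotation gives to PIR, SNOWBALL_020040_st, read 6.59 and 6.93 in DL-FP, 7.89 and 7.66 in DL-FS, 5.48 and 5.47 in AS-FP, and 7.33 and 6.80 in AS-FS. Both DL-FS arrays were the highest of the 8 and both AS-FP arrays the lowest (3.9% and 3.99% of all probe sets). Within each breed the FP arrays lay below the FS arrays, as on 15.6% of all probe sets within DL and 15.6% within AS. Across the breeds the FP and FS arrays overlapped, since DL-FP 2 (6.93) lay above AS-FS 2 (6.80). The mean was 6.12 ± 0.76 (SD, n = 4) in FP and 7.42 ± 0.47 (SD, n = 4) in FS, a difference of -1.31 with a standard error of 0.14, or 2.47-fold. It was -1.01 within DL and -1.60 within AS. In these bulk samples, fewer cells of a type and less RNA per cell cannot be told apart.

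The PIR probe set paired by the study, SNOWBALL_023591_st, read 6.95 and 6.95 in DL-FP, 8.51 and 8.31 in DL-FS, 6.68 and 6.94 in AS-FP, and 8.26 and 8.18 in AS-FS. Here every FP array lay below every FS array, with a gap of more than 1 unit, and the breeds were close together within each tissue. With a gap of any size, every FP array lay below every FS array on 1.4% of all probe sets. The difference between FP and FS was -1.43 (SE 0.10), a 2.70-fold lower level in FP, with -1.46 within DL and -1.41 within AS.

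The breed difference of PIR, which did not enter its choice, depended on the probe set. With SNOWBALL_020040_st, PIR was lower in AS than in DL by -0.998 (SE 0.14, 95% interval -1.32 to -0.67, limma adjusted p 0.033), although the arrays of the breeds overlapped across the tissues. It was lower in AS within FP (-1.29, adjusted p 0.0879, a call that was lost when any of the 4 FP arrays was left out), and the value within FS was -0.71 (adjusted p 0.483). The call over both tissues was lost when DL-FP 2, DL-FS 1, AS-FP 1 or AS-FP 2 was left out, with adjusted p of 0.119 to 0.153, while the difference stayed between -1.13 and -0.87 without any 1 array. Without DL-FP 1, the array with the dim spikes, it was -1.08 (adjusted p 0.0798).

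With SNOWBALL_023591_st the breed difference of PIR was -0.16 (SE 0.10, 95% interval -0.38 to 0.06, limma adjusted p 0.712). The gap between the probe sets was noticed in these values and is given as a description, with no test. On each array the value of SNOWBALL_023591_st was subtracted from that of SNOWBALL_020040_st, and this within-array difference ran from -0.65 to -0.02 on the DL arrays and from -1.47 to -0.93 on the AS arrays. It was lower in AS by -0.84, and the breeds did not overlap. Between the tissues the same quantity differed by 0.13. Which of the probe sets follows PIR transcripts more closely was not tested.

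**Figure D1:**
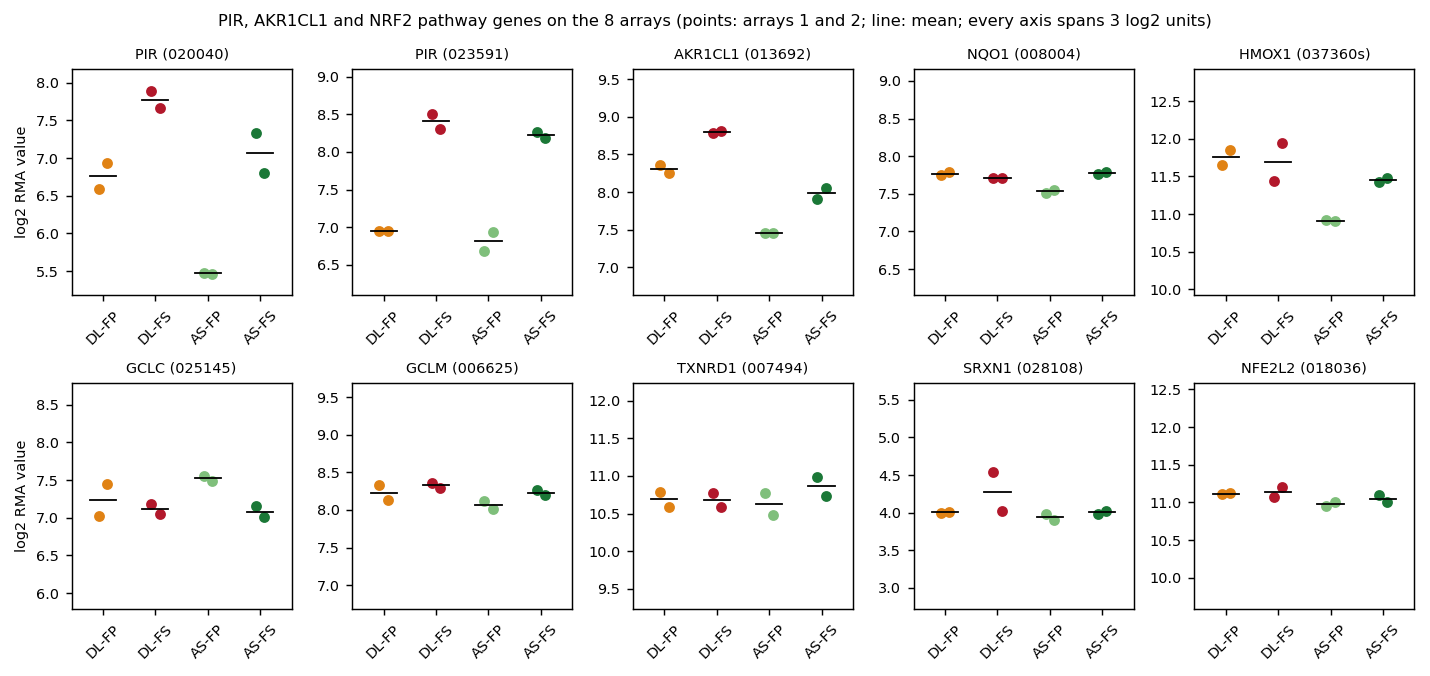
Log2 RMA values (y axis) of both PIR probe sets and of the brightest probe set of each other gene in the 4 groups (x axis). Points are arrays, lines are group means, and every panel spans the same number of log2 units. Both AS-FP arrays are the lowest in the panels of PIR, AKR1CL1, NQO1, HMOX1, GCLM and SRXN1, and the highest in that of GCLC. PIR was chosen by its tissue difference and AKR1CL1 by its tissue and breed differences.

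AKR1CL1 was lower in FP than in FS and lower in AS than in DL. Its probe set, SNOWBALL_013692_st, read 8.36 and 8.25 in DL-FP, 8.78 and 8.81 in DL-FS, 7.45 and 7.45 in AS-FP, and 7.91 and 8.05 in AS-FS. The groups followed each other without overlap in the order DL-FS, DL-FP, AS-FS, AS-FP, so the breeds were fully separated and the tissues were separated within each breed. Every AS array lay below every DL array on 2.86% of all probe sets. Both FP arrays lay below both FS arrays on 15.6% of all within DL and on 15.6% within AS. The difference between FP and FS was -0.51 (SE 0.08), with -0.49 within DL and -0.53 within AS. The difference between AS and DL was -0.83 (SE 0.08, 1.78-fold), with -0.86 within FP and -0.81 within FS. The difference of the tissue effects between the breeds was -0.04 (95% interval -0.41 to 0.32). Members of the AKR1C family are alike in sequence, so that signal from a relative could reach this probe set.

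The neighbours of both genes were looked up in the RefSeq gene order of the assembly Sscrofa11.1. Next to PIR lie VEGFD and BMX, of which BMX was at background (mean 2.56). PIGA, a gene for GPI anchor synthesis with 4 probe sets, lies beyond VEGFD. It had tissue differences of -0.15 to -0.29 that limma did not call. Next to AKR1CL1 lie UCN3, at -0.10 between the tissues and 0.06 between the breeds, and AKR1C1, close to background at a mean of 2.88, with 0.10 and 0.02. A few genes away, AKR1E2, another aldo-keto reductase, had a breed difference of -1.16 on its brighter probe set (SE 0.28, limma adjusted p 0.204, and 0.0391 with the replicate number as a block), where AS-FP 2 at 4.07 lay far from AS-FP 1 at 2.71. The gene LOC733635, also nearby, had a breed difference of -0.86 (adjusted p 0.125, with the block 0.0662) at levels near background.

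Among the other 7 genes no probe set passed the tissue test. Limma called 0 of 14 at an adjusted p of 0.1 or less, against 0.264% of all probe sets, the smallest adjusted p was 0.812, and 2 of the 14 (both of GCLC) had an unadjusted p under 0.05, against 5.1% of all. A fit that added the replicate number as a block (0.987% of all probe sets called) and a plain linear model without moderated variances also called 0, but with the block 5 of the 14 had an unadjusted p under 0.05 (both of GCLC, both of HMOX1 and 1 of TXNRD1), against 7.85% of all. The 14 differences between FP and FS ran from -0.24 to 0.33 with a median of -0.10, beside a median of -2.16e-05 over all probe sets, with 9 below and 5 above 0. Their 95% intervals reached no lower than -0.68 (GCLM SNOWBALL_040517_st, near background). Those of SRXN1 SNOWBALL_028108_st and HMOX1 SNOWBALL_037360_s_st reached -0.51 and -0.50. PIR stood at -1.31 and -1.43 and AKR1CL1 at -0.51. Because PIR and AKR1CL1 were chosen by their tissue differences, larger values than in the other genes follow from the choice. Setting them beside these intervals is therefore a description and no test.

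Between the breeds, limma called 1 of 15 probe sets, that of PIR, when PIR was counted with the other 7 genes, against 0.666% of all probe sets (0.436% called lower in AS). A plain linear model called 0, and 5 of the 15 had an unadjusted p under 0.05, against 8.72% of all. With the replicate number as a block the count was 3 of 15, against 3.04% of all probe sets, and the additional calls were both HMOX1 probe sets. Then 6 of the 15 had an unadjusted p under 0.05, against 13.2% of all. The 15 differences had a median of -0.11, beside 0.01 over all probe sets.

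**Figure D2:**
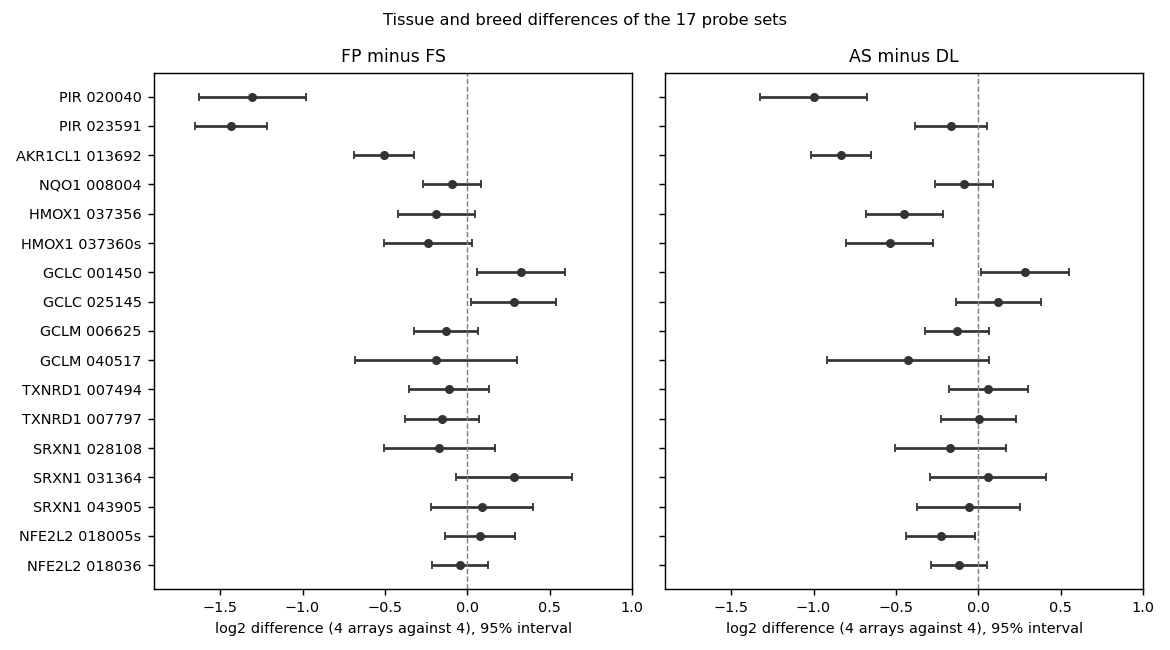
Log2 differences (x axis) between FP and FS, left, and between AS and DL, right, for the 17 probe sets (y axis), each over 4 arrays against 4, with 95% intervals from limma. The PIR and AKR1CL1 values between the tissues and the AKR1CL1 value between the breeds chose these genes; the values of the other genes between the tissues lie from -0.24 to 0.33.

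HMOX1 encodes haem oxygenase 1, which breaks down haem to biliverdin, carbon monoxide and iron. Its probe set SNOWBALL_037356_st read 10.67 and 10.75 in DL-FP, 10.52 and 10.83 in DL-FS, 9.93 and 10.14 in AS-FP, and 10.33 and 10.56 in AS-FS. SNOWBALL_037360_s_st read 11.66 and 11.85 in DL-FP, 11.43 and 11.94 in DL-FS, 10.93 and 10.90 in AS-FP, and 11.43 and 11.47 in AS-FS. On both, the AS-FP arrays were the lowest of the 8 and the other groups lay near each other.

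The breed difference of HMOX1 was -0.45 (SE 0.10, limma adjusted p 0.173) and -0.54 (SE 0.12, adjusted p 0.152) on these probe sets, which did not pass the threshold. With the replicate number as a block it was called lower in AS on both (adjusted p 0.0107 and 0.0276). Within FP the differences were -0.67 (adjusted p 0.253, with the block 0.0164) and -0.84 (adjusted p 0.193, with the block 0.039), and within FS they were -0.23 and -0.24, which neither fit called. Without DL-FS 1 the second probe set passed without the block too (-0.66, adjusted p 0.0591). Between the tissues HMOX1 differed by -0.19 and -0.24 (adjusted p 1 for both), with 0.04 and 0.06 within DL and -0.41 and -0.54 within AS. The test of the change in tissue difference between the breeds gave -0.45 and -0.60, with adjusted p of 1 for both.

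NQO1 encodes the quinone reductase that is a widely used marker of NRF2 activity in human cells. It read 7.75 and 7.79 in DL-FP, 7.71 and 7.71 in DL-FS, 7.51 and 7.55 in AS-FP, and 7.76 and 7.80 in AS-FS. Both AS-FP arrays were again the lowest, while the other 6 arrays lay within 0.1 of each other. The difference was -0.09 between the tissues (SE 0.08, 95% interval -0.27 to 0.08, limma adjusted p 1) and -0.09 between the breeds (SE 0.08, adjusted p 0.846). Within AS the tissues differed by -0.25 and within FP the breeds by -0.24, neither of which was called.

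GCLC and GCLM encode the catalytic and the modifier subunit of glutamate-cysteine ligase, which makes the first step of glutathione synthesis. GCLC SNOWBALL_001450_st read 6.93 and 7.27 in DL-FP, 6.66 and 6.99 in DL-FS, 7.36 and 7.50 in AS-FP, and 7.10 and 7.01 in AS-FS, and SNOWBALL_025145_st read 7.03 and 7.45, 7.19 and 7.05, 7.56 and 7.48, and 7.15 and 7.01 in the same order. On both probe sets the AS-FP arrays were the highest of the 8, so that GCLC stood on the opposite side from PIR, AKR1CL1, NQO1 and HMOX1. Its tissue differences were 0.33 (SE 0.12, unadjusted p 0.0229, limma adjusted p 0.812) and 0.28 (SE 0.11, unadjusted p 0.0367, adjusted p 0.913), and its breed differences were 0.28 (adjusted p 0.536) and 0.12 (adjusted p 0.856). GCLM SNOWBALL_006625_st read 8.33 and 8.13, 8.36 and 8.30, 8.12 and 8.01, and 8.27 and 8.19 in the same order. Its differences were -0.13 between the tissues and -0.13 between the breeds, with adjusted p of 1 and 0.745. The other GCLM probe set, SNOWBALL_040517_st, lay near background, between 2.55 and 3.81.

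TXNRD1 encodes the cytosolic thioredoxin reductase, which returns thioredoxin to its reduced form with NADPH. SNOWBALL_007494_st read 10.79 and 10.59 in DL-FP, 10.77 and 10.58 in DL-FS, 10.77 and 10.48 in AS-FP, and 10.98 and 10.74 in AS-FS, and SNOWBALL_007797_st read 10.63 and 10.41, 10.73 and 10.44, 10.52 and 10.35, and 10.74 and 10.62 in the same order. In every group the first array was higher than the second on both probe sets. The difference between the replicate numbers, 2 minus 1, was -0.23 (SE 0.05, limma adjusted p 0.0587) and -0.20 (SE 0.05, adjusted p 0.0971), and these were the only 2 of the 16 probe sets called for the number, against 5.52% of all probe sets; without any 1 array, 0 or 1 passed the threshold. The labels do not say what the number stands for. The tissue differences were -0.11 and -0.15 and the breed differences 0.06 and 0.00, none of them called.

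SRXN1 encodes sulfiredoxin, which repairs overoxidised peroxiredoxins, and its 3 probe sets were dim. SNOWBALL_028108_st lay between 3.90 and 4.54, SNOWBALL_043905_st between 3.71 and 4.07, and the mean of SNOWBALL_031364_st (2.31) was below background. None was called, and the differences ran from -0.17 to 0.29 between the tissues and from -0.17 to 0.06 between the breeds.

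NFE2L2 itself was measured by 2 probe sets. SNOWBALL_018005_s_st read 8.56 and 8.38 in DL-FP, 8.38 and 8.31 in DL-FS, 8.13 and 8.27 in AS-FP, and 8.05 and 8.27 in AS-FS, with every AS array below every DL array, as on 2.86% of all probe sets. The breed difference was -0.23 (SE 0.09, unadjusted p 0.0377, limma adjusted p 0.53). SNOWBALL_018036_st lay between 10.95 and 11.21 on all arrays, and its breed difference was -0.11 (adjusted p 0.747). Between the tissues the probe sets differed by 0.08 and -0.05. These are transcript levels, and NRF2 is regulated largely through the stability of its protein, which the array does not measure.

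Whether the tissue difference depended on the breed could not be settled for single genes. Limma called 0 of 16 in this comparison, and 0% of all probe sets, with 1 of the 16 (HMOX1 SNOWBALL_037360_s_st) at an unadjusted p under 0.05, against 3.58% of all. The block fit and the plain linear model also called 0. With the block, 4 of the 16 had an unadjusted p under 0.05 (both of HMOX1, NQO1 and TXNRD1 SNOWBALL_007494_st), against 6.16% of all, all with a more negative tissue difference in AS. For HMOX1 SNOWBALL_037360_s_st the 95% interval without the block was -1.13 to -0.07. For PIR SNOWBALL_020040_st the difference of the tissue effects was -0.58 (95% interval -1.23 to 0.07). Within DL, limma called 0 of the 14 probe sets of the other 7 genes between the tissues, against 0.044% of all, with 0 at an unadjusted p under 0.05 (4.2% of all). Within AS it called 0 of 14, against 0.0545% of all, with 3 at an unadjusted p under 0.05 (5.03% of all). Within FP it called 1 of 15 between the breeds (PIR), against 0.212% of all (0.132% lower in AS), 3 at an unadjusted p under 0.05 (5.95% of all), and 3 with the block (0.826% of all). Within FS it called 0 of 15, against 0.0943% of all, with 2 at an unadjusted p under 0.05 (6.88% of all). The block fit called 0 within DL (0.434% of all), within AS (0.495%) and within FS (1.07%). With it, the numbers at an unadjusted p under 0.05 were 0 of 14 within DL (7.14% of all), 7 of 14 within AS (7.32%), 6 of 15 within FP (9.06%) and 4 of 15 within FS (11%). The 7 within AS were NQO1 and both probe sets each of HMOX1 and TXNRD1, lower in FP, and both of GCLC, higher in FP. The plain linear model called 0 in all 4 comparisons.

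A pattern noticed in the values, and therefore not tested, was that AS-FP stood apart from the other 3 groups in several of these genes. Both AS-FP arrays lay below all of the other 6 on 5 of the 14 probe sets of the other 7 genes (NQO1, both of HMOX1, GCLM SNOWBALL_006625_st and SRXN1 SNOWBALL_028108_st), against 3.99% of all probe sets, and also on both probe sets of PIR and on that of AKR1CL1. For GCLM, for SRXN1 and for PIR SNOWBALL_023591_st the nearest other array was within 0.02. They lay above the other 6 on both GCLC probe sets, against 3.72% of all. No other group was extreme on any of the 14, whereas DL-FS was the highest group on both PIR probe sets and on AKR1CL1, against 3.9% of all. For AKR1CL1 the lowest place of AS-FP and the highest of DL-FS follow from its choice by both differences. For PIR they follow in part from its choice by the tissue difference. Probe sets of 1 gene share its transcripts, and all of them share the same 2 arrays.

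**Figure D3:**
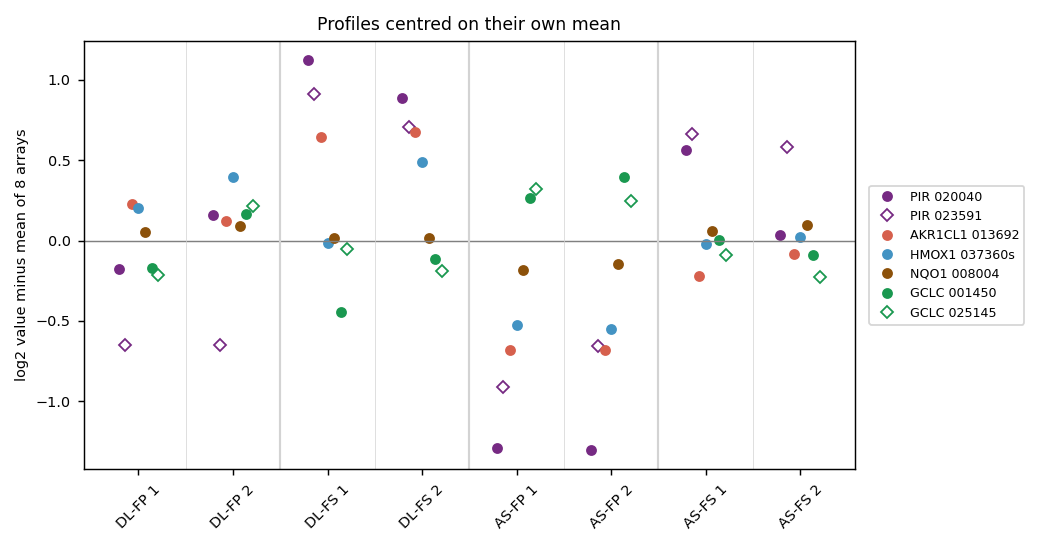
Log2 value of 7 probe sets on each of the 8 arrays (x axis) minus that probe set's mean over the arrays (y axis). On the AS-FP arrays PIR, AKR1CL1, HMOX1 and NQO1 lie below 0 and both GCLC probe sets above 0, while on the DL-FS arrays PIR and AKR1CL1 lie highest. PIR was chosen by its tissue difference and AKR1CL1 by its tissue and breed differences.

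To compare whole profiles, the 8 values of each probe set were centred on their mean and the root mean square difference between profiles was taken, where 0 means the same profile. For PIR SNOWBALL_020040_st a flat line lay at 0.851, AKR1CL1 at 0.478, HMOX1 at 0.671 and 0.628, and GCLC at 1.07 and 1.002, farther away than the flat line. For AKR1CL1 a flat line lay at 0.490, HMOX1 at 0.288 and 0.283, NQO1 at 0.435, and GCLC at 0.713 and 0.645. HMOX1 was the closest of the other 7 genes to these references, and it was nearer to AKR1CL1 than PIR SNOWBALL_020040_st was (0.478). For PIR SNOWBALL_023591_st, with a flat line at 0.727, the order was another: AKR1CL1 lay at 0.582, SRXN1 SNOWBALL_028108_st at 0.644, TXNRD1 SNOWBALL_007797_st at 0.660, GCLM SNOWBALL_006625_st at 0.662, and HMOX1 at 0.669 and 0.678. Because large differences weigh most in this measure, it also reflects that PIR varied more than the others.

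The closest profiles were also looked up among 12013 named genes. With so many genes some are bound to lie closer than any of the 7, so this is a description only. The closest to PIR SNOWBALL_020040_st were CALB2 (0.311), FGF9 (0.333), SGCA (0.363), HPSE (0.398) and IGF2 (0.402). CALB2, which encodes the calcium-binding protein calretinin, read 4.38 and 4.17 in DL-FP, 5.48 and 5.37 in DL-FS, 3.64 and 3.15 in AS-FP, and 4.45 and 4.61 in AS-FS. The closest to AKR1CL1 were HMCN1 (0.0871), WDR72 (0.119), IFIT3 (0.137), LAMA3 (0.144) and FBXO32 (0.149). HMCN1, which encodes the extracellular matrix protein hemicentin 1, read 7.80 and 7.87 in DL-FP, 8.28 and 8.34 in DL-FS, 6.86 and 6.84 in AS-FP, and 7.50 and 7.67 in AS-FS, the same order of groups as AKR1CL1. For PIR SNOWBALL_023591_st, a reference added after the values had been seen, the closest were MPPED2 (0.181), ZFPM2 (0.197), PRDM8 (0.233), FBLN1 (0.251) and EFEMP1 (0.262).

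The wider pathway was described with 8 lists of 136 genes, of which 102 had a named probe set, each taken by its brightest one. The shares of all probe sets given beside the lists include dim ones. Between the tissues limma called 1 of the 102 higher in FP and 0 lower, against 0.264% of all probe sets. At an unadjusted p under 0.05 there were 10, against 5.1% of all, and the median difference was 0.01. The called gene was MGST1, a membrane-bound glutathione transferase. Its probe set SNOWBALL_021237_s_st read 5.80 and 6.15 in DL-FP, 5.32 and 5.52 in DL-FS, 6.14 and 6.54 in AS-FP, and 4.98 and 5.01 in AS-FS, a difference of 0.95 (SE 0.14, adjusted p 0.0574), opposite in sign to PIR and AKR1CL1. The call was lost without each of 7 of the 8 arrays in turn, and the dimmer MGST1 probe set differed by -0.01.

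Between the breeds limma called 1 of the 102 lower in AS and 0 higher, against 0.666% of all probe sets. At an unadjusted p under 0.05 there were 22, against 8.72% of all, and the median difference was 0.00. The called gene was EPHX1, a microsomal hydrolase of epoxides. It read 9.51 and 9.63 in DL-FP, 9.27 and 9.49 in DL-FS, 8.92 and 8.95 in AS-FP, and 8.70 and 8.54 in AS-FS. Every AS array lay below every DL array, as on 2.86% of all probe sets. The difference was -0.70 (SE 0.09, limma adjusted p 0.0199). Without DL-FP 2 no gene of the lists passed. The tissue difference of EPHX1 was 0.25 (adjusted p 0.767).

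With the replicate number as a block the breed count was 2 higher and 8 lower in AS, against 3.04% of all probe sets. The 8 were EPHX1, GPX3 (-0.91, adjusted p with the block 0.0177), SESN3 (-0.65, 0.0182), TIPARP (-0.39, 0.027), ALDH1A1 (-1.11, 0.0337), AKR1E2 (-1.16, 0.0391), TKT (-0.32, 0.0556) and AHR (-0.33, 0.0903). GPX3 encodes a secreted glutathione peroxidase, ALDH1A1 a retinaldehyde dehydrogenase, TKT the transketolase of the pentose phosphate pathway, and TIPARP is a target of the aryl hydrocarbon receptor encoded by AHR. The 2 that were higher were NQO2 (0.38, 0.058), a quinone reductase related to NQO1, and SESN2 (0.30, 0.0688), a stress-induced sestrin. Their tissue differences ran from -0.06 (TIPARP) to 0.29 (AHR), and none of the 10 was called between the tissues on its brightest probe set. A dimmer probe set of AHR, SNOWBALL_042652_st, was called lower in AS without the block too (-0.47, adjusted p 0.0793, with the block 0.0144), and with the block it was called higher in FP (0.38, adjusted p 0.0526, without the block 0.235).

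By list, the counts without the block were 0 of 11 regulators of NRF2 in either comparison, 1 of 27 genes of glutathione synthesis, use and export between the tissues (MGST1), and 1 of 21 carbonyl and quinone detoxification genes between the breeds (EPHX1). KEAP1, SQSTM1 and MAFG, also listed as regulators of NRF2, had no named probe set and could not be followed. The counts were 0 in either comparison for 16 thioredoxin and peroxiredoxin genes, 3 genes of NADPH supply and 14 genes of haem and iron handling. They were also 0 in either comparison for 6 aryl hydrocarbon receptor genes and 4 genes of the superoxide dismutase and catalase list (SOD1, SOD2, SOD3 and PARK7). The catalase gene CAT had no named probe set and could not be followed. Each gene was taken by its brightest probe set. The plain linear model called 0 of the 102 in both comparisons. Medians of the lists lay between -0.16 and 0.04 between the tissues and between -0.12 and 0.05 between the breeds. Both AS-FP arrays lay below the other 6 on 5 of the 102 probe sets (4.9%, beside 3.99% of all) and above them on 0.

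**Figure D4:**
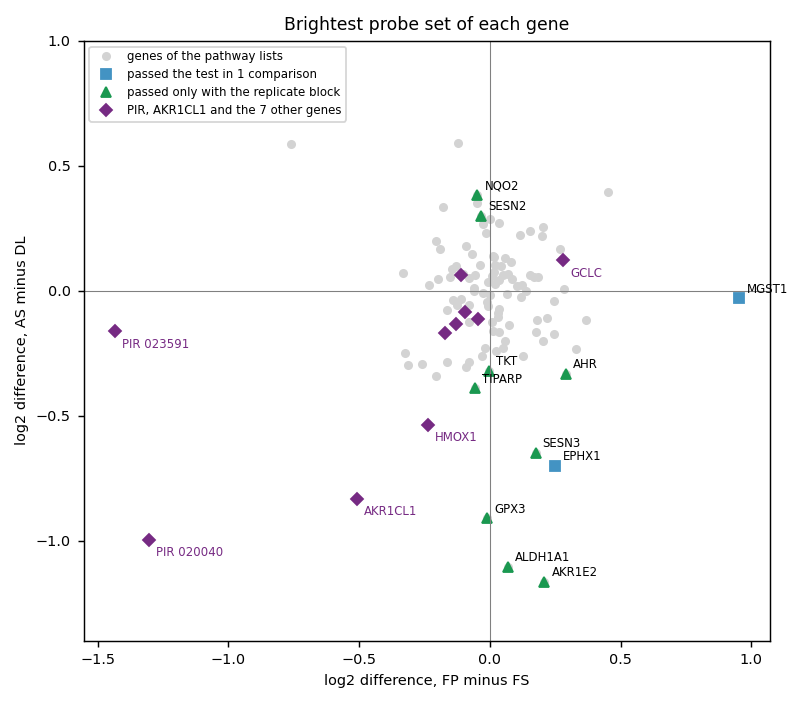
Log2 difference between FP and FS (x axis) against that between AS and DL (y axis) for the brightest probe set of each of 102 pathway genes, with PIR (both probe sets), AKR1CL1 and the 7 other genes as diamonds. Squares passed limma's test in 1 comparison and triangles passed it only with the replicate block; the comparisons use the same 8 arrays, both PIR probe sets lie to the left of every other point, and MGST1 lies farthest to the right.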

How the data were processed

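The Porcine Snowball Array was run on 8 samples of undifferentiated SMSCs (4 groups of 2). The deposited values are log2 values that the authors made by robust multichip averaging (RMA) in Expression Console from scans, for which the submitters' processing notes name GCOS 1.1.1. Groups came from the labels, which covered every value column.

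From the 47845 probe sets, 123 controls were left out and 47722 were fitted with limma 3.58.1 in R 4.3.3, with a mean for each group and trended, moderated variances (4 residual degrees of freedom). The Benjamini-Hochberg adjustment ran over all probe sets of a comparison, the threshold was that of the methods (0.1), and no filter on low values was applied. The study used its threshold after filters on detection and on the SD, so its calls and those given here are not directly comparable. The annotation named 26014 probe sets, of which 422 had their symbol updated. Of the 17 probe sets shown, 16 had a mean above the highest background median (2.81), and SRXN1 SNOWBALL_031364_st did not. Figures were drawn with Python 3.11.15, pandas 2.3.3, numpy 2.4.6 and matplotlib 3.10.9.

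Arrays with the same replicate number deviated together from their group means in 6 of 6 pairs of groups (r of 0.143 to 0.219, each above 0.1). The numbers, which come from the sample titles, were therefore taken to pair the arrays. These correlations are weak, and the 6 pairs are built from the same 4 groups and are not independent. The fit with the number as a block is given where it changes a call or moves a count of the members by over 1.5 times.

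The members and the pathway lists were chosen with earlier results of these data known. Named were all probe sets of the members, the list genes past the threshold with or without the block (at most 4 a list and comparison), and the 5 genes with the closest profile. The alternatives were the block, variances without the trend, a plain linear model, an SD above 0.25, a filter on dim probe sets, arrays centred on their median, the mean of a gene's probe sets and leaving out each array. The scripts were tested on simulated data. Promoter and protein sequences were not analysed here. The number of arrays limits the precision.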

Additional observations from a re-analysis of the deposited data

Results flagged for a closer look

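In 68 groups of 4 arrays (each probe set within FP, FS, DL and AS), the array farthest from the rest was checked against Dixon's critical value at the 95% level. This picked out 6, and chance alone picks about 1 in 20 groups. For PIR SNOWBALL_023591_st, AS-FP 1 stood at 6.68 among FP arrays otherwise at 6.94 to 6.95. For HMOX1 SNOWBALL_037360_s_st, DL-FS 2 stood at 11.94 among FS arrays otherwise at 11.43 to 11.47. For SRXN1 SNOWBALL_028108_st, DL-FS 1 stood at 4.54 both among the FS arrays (otherwise 3.98 to 4.02) and among the DL arrays (otherwise 3.99 to 4.02). For SRXN1 SNOWBALL_031364_st, which lies below background, AS-FP 2 stood at 2.71 among the FP arrays (otherwise 2.36 to 2.39) and DL-FS 2 at 2.02 among the DL arrays (otherwise 2.37 to 2.39).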

How the results depend on the processing

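With 2 arrays per group and signals near background for GCLM SNOWBALL_040517_st and SRXN1, small differences could not be resolved. The counts of called probe sets of the members stayed at 0 under all alternatives between the tissues, within DL, within AS, within FS and for breed by tissue. Between the breeds the count of 1 was 3 with the replicate block, 0 with the plain linear model and 0 to 1 without 1 array, and without DL-FS 1 the 1 call was HMOX1 in place of PIR. Within FP the count of 1 was 3 with the replicate block, 0 without the trend, with the plain linear model and with arrays centred on their median, and 0 to 1 without 1 array. The 2 calls for the replicate number were 0 without the trend, with the plain linear model and with the SD filter, and 0 to 1 without 1 array. Of the pathway genes, the 1 called between the tissues was 0 without the trend, with the plain linear model, with the mean of a gene's probe sets and without 7 of the 8 arrays (0 to 1). The 1 called between the breeds was 10 with the replicate block, 0 with the plain linear model, 4 with the SD filter, 2 with the mean of probe sets and 0 to 2 without 1 array (0 without DL-FP 2). The cause was not tested. Over all probe sets the block moved the calls from 126 to 471 between the tissues and from 318 to 1451 between the breeds. For PIR SNOWBALL_020040_st the breed difference of -0.998 had an adjusted p of 0.357 in the plain linear model. Of 454 values of single differences under alternatives, 433 held, which meant the same direction and the same side of the threshold. For PIR between the tissues and for AKR1CL1 no threshold was applied. There, holding meant the same direction and a shift smaller than the SD within groups. Another 13 values changed sign, none of them called. These were GCLM SNOWBALL_040517_st between the tissues (-0.44 to 0.056 without 1 array) and, between the breeds without 1 array, TXNRD1 SNOWBALL_007494_st (-0.012 to 0.13), TXNRD1 SNOWBALL_007797_st (-0.068 to 0.073, and -0.0012 with arrays centred), SRXN1 SNOWBALL_031364_st (-0.032 to 0.15) and SRXN1 SNOWBALL_043905_st (-0.14 to 0.018).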
